A study of Mus musculus with 3 samples.

Results

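The regions described here are the wide FOG2 peaks, the 574 autosomal peaks of 500 bp or more among 6166 peaks in a deposited list of FOG2 binding sites from embryonic mouse heart ventricle. They were selected on their measured width alone, and the 5493 autosomal peaks under 500 bp, called narrower here, served for comparison. Ventricles were taken at E12.5 (days of gestation) from embryos that carried Fog2flbio on both alleles, a tagged form of the FOG2 gene that can be biotinylated, and the bacterial biotin ligase BirA on both alleles of Rosa26. The labels also call the samples wild type and name a FOG2 antibody, whereas their protocol describes recovery on streptavidin beads, which bind biotin. Each of the 2 pulldown libraries came from a pool of about 20 ventricles, and 1 input library was the control. All 3 libraries came from the same genotype, and none was a pulldown without tagged FOG2. Chromatin was sheared to 300 to 800 bp, a size range that includes the width threshold.

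The authors pooled the pulldown libraries before deposit, so no value below has a spread between replicates. The fold of a peak is the authors' ratio of pulldown to control at the summit, the highest point of the peak. Fragments are the pulldown fragments over the summit, worked back from the deposited fold and −log10 p, and their 95% Poisson intervals cover counting error only. Positions are on mm10. The files used here hold no expression values, so the labelled tissue was not checked against its marker genes.

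FOG2 is encoded by Zfpm2 and does not read a DNA word of its own. It is brought to chromatin by GATA factors, chiefly GATA4 in the heart, and recruits corepressor complexes such as NuRD. Mouse hearts without FOG2 have thin ventricular walls and lack coronary vessels. The width of a peak is the stretch over which the pulldown signal stays above the caller's cutoff.

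A few wide peaks lay over RefSeq promoter windows, and 5 of these promoters are shown. Ankrd1, Atf3, Yap1 and Hspa1a are among the 8 genes of highest fold and were taken for their known roles, and Tecrl, of lower fold, was picked after its sequence was seen. Each line gives the 250 bases before a transcription start, 5′ to 3′ on the gene's own strand (mm10), with GATA and TEAD words in capitals. Searched on both strands, the words for GATA factors were AGATAA together with TGATAA and also AGATAG together with TGATAG. The word for T-box factors was AGGTGT and that for TEAD factors GGAATG.
Ankrd1: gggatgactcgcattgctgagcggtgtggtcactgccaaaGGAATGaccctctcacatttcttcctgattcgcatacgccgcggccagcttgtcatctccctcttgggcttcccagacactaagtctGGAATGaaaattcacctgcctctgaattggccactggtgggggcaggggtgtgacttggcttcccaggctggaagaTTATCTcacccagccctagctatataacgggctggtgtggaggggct
Atf3: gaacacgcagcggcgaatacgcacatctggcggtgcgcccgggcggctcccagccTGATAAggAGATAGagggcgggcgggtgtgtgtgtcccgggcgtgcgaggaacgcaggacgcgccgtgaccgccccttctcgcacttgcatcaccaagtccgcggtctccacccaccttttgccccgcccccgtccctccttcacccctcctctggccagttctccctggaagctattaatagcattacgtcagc
Yap1: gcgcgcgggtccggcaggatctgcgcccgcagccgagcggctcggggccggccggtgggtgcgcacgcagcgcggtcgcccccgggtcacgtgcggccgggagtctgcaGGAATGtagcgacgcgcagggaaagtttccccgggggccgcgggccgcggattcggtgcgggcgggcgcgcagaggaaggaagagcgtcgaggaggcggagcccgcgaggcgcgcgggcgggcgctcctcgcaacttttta
Tecrl: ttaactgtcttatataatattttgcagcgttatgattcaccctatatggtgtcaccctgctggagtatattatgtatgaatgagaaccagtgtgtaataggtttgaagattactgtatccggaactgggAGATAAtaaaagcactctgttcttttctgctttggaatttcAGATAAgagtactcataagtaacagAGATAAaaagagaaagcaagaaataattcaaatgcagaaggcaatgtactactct
Hspa1a: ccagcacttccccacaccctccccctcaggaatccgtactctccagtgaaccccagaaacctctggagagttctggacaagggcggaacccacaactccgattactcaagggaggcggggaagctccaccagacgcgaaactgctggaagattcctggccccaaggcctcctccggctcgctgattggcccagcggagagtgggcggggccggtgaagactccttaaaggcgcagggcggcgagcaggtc
The Ankrd1 stretch (chr19:36119845-36120094, minus strand) held 1 GATA word and 2 TEAD words. Ankrd1 encodes a stress-responsive protein of the sarcomere, and its wide peak measured 26.5-fold over control and 1571 bp, with 74 fragments (58.1 to 92.9). Atf3, a stress-induced transcription factor, had 2 GATA words (chr1:191183334-191183583, minus strand). Yap1, the Hippo pathway coactivator that acts through TEAD factors, had 1 TEAD word (chr9:8004597-8004846, minus strand). Tecrl, a gene of inherited arrhythmia, had 3 GATA words (chr5:83355196-83355445, minus strand). Hspa1a, an inducible heat shock protein gene, had none of the words (chr17:34972157-34972406, minus strand). Of the other 4 genes among the 8, Hspa1l and 1 of 2 windows of Aldoa held 1 TEAD word, and Gm32830 and H2-K1 held none of the words.

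In the 300-base RefSeq windows, from 250 bases before to 50 after a start, GATA words were in 8 of 20 windows overlapped by a wide peak (40.0%, Wilson 95% interval 21.9 to 61.3). Such words were in 60 of 113 windows overlapped by a narrower peak (53.1%) and in 29.5% of all 31396 autosomal windows. TEAD words were in 6 of the 20 (interval 14.5 to 51.9%), against 15.9% with narrower peaks and 14.6% of all windows. T-box words were in 1 of the 20, against 9.73% and 13.8%. The intervals were wide, several windows share a gene, and a word match describes the letters only and does not show a bound site.

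Wide peaks were on the whole stronger than narrower ones, a description with no test because width and fold come from the same signal. Their median width was 639.5 bp (quartiles 557 and 810, longest 5602), against 238 bp for narrower peaks. Their median fold was 12.3 (quartiles 9.41 and 18.8, range 4.25 to 141), against 6.30 (5.31 and 7.95). A median wide summit rested on 24 fragments and a median narrower one on 11. Among wide peaks, 397 (69.2%) reached 10-fold, against 622 narrower peaks (11.3%), so most peaks of 10-fold or more were narrower. Both kinds of peak overlapped widely in strength all the same. In 177 wide peaks the fold was under 10, and 17 (2.96%) rested on 10 fragments or fewer. The control level at the summit was similar, with a median of 0.771 for wide and 0.828 for narrower peaks. Within the wide peaks, width and fold had a Spearman correlation of 0.482 over 574 peaks, which share 1 pooled library and its depth.

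**Figure D1:**
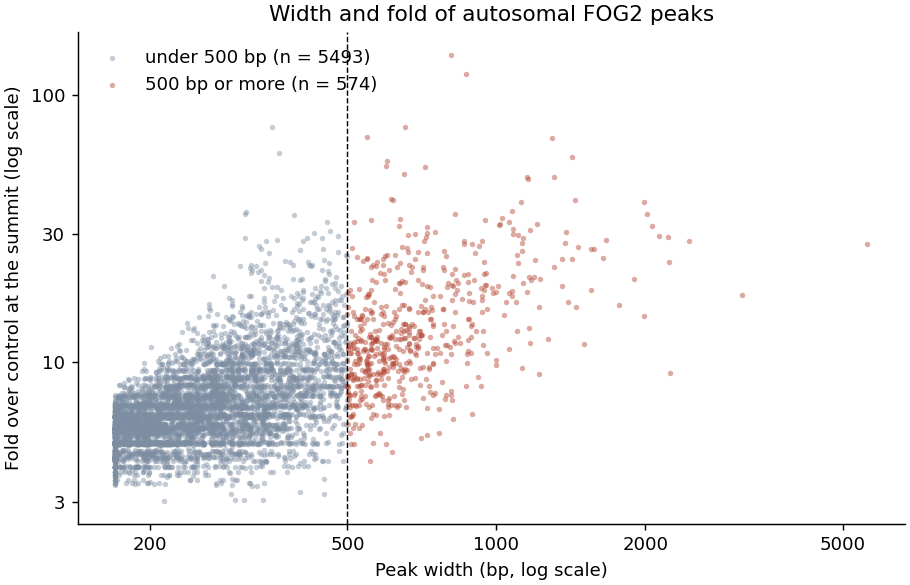
Fold over control at the summit (log scale) against peak width in bp (log scale) for all 6067 autosomal FOG2 peaks, 1 point per peak; red points are the 574 wide peaks and the dashed line marks 500 bp. The wide peaks reach 141-fold, and many below 10-fold lie beside narrower peaks of the same strength.

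The threshold cut through a continuous range. The 19 peaks of 500 to 504 bp had folds from 5.86 to 18.04 with a median of 8.69, and 11 of them lay outside genes. The 12 peaks of 495 to 499 bp had folds from 5.86 to 25.1 with a median of 11.1, and 8 of them lay outside genes. At the other extreme, 73 wide peaks (12.7%) measured 1 kb or more and 9 measured 2 kb or more.

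Wide summits lay in the bodies of protein-coding genes less often than narrower ones. Of the 574, 201 (35.02%, 31.2 to 39.0) were in a gene body over 1 kb from an end of a coding gene, against 2474 narrower summits (45.04%, 43.7 to 46.4). The difference was −10.0 percentage points (95% interval −14.0 to −5.82, adjusted p = 1.65e-05 in a two-sided Fisher's exact test). Outside coding genes lay 353 wide summits (61.5%, 57.5 to 65.4) and 2848 narrower ones (51.8%, 50.5 to 53.2). That was 9.65 points higher for wide summits (5.40 to 13.8, adjusted p = 2.14e-05, Fisher's exact test). These tests treat summits as independent, describe this pooled list and were adjusted over 4 measures of location.

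At gene ends no difference was detected. Within 1 kb of an end of a coding gene lay 20 wide summits (3.48%, 2.27 to 5.32) and 171 narrower ones (3.11%, 2.69 to 3.61). The difference of 0.371 points had an interval from −0.942 to 2.26 (adjusted p = 0.615, Fisher's exact test). Fewer wide summits had any coding gene within 100 kb, 397 (69.2%, 65.3 to 72.8) against 4220 narrower ones (76.8%, 75.7 to 77.9). This difference was −7.66 points (−11.7 to −3.85, adjusted p = 9.57e-05, Fisher's exact test). It fell to −1.12 points (adjusted p = 0.329, Fisher's exact test) when genes of any biotype were used. The shares were then 94.4% for wide and 95.5% for narrower summits, which leaves little room for a difference.

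**Figure D2:**
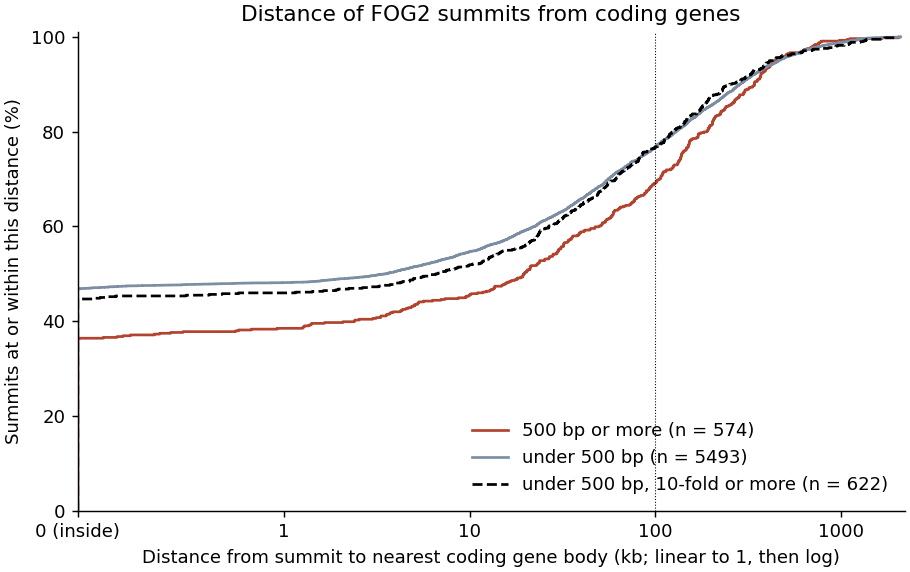
Cumulative percentage of summits against the distance in kb from the summit to the nearest coding gene body (linear to 1 kb, then log) for 574 wide peaks, 5493 narrower peaks and the 622 narrower peaks of 10-fold or more. The curve of the wide peaks runs below both others up to 100 kb (dotted line), where it reads 69.2% against 76.8% for the narrower peaks.

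The same direction was seen among peaks of like strength and on most chromosomes. Among peaks of 10-fold or more, 135 of 397 wide summits (34.0%) and 270 of 622 narrower ones (43.4%) lay in gene bodies, a difference of −9.40 points (adjusted p = 0.00853, Fisher's exact test). Among peaks under 10-fold the shares were 37.3% and 45.2%, a difference of −7.96 points that did not pass the threshold (adjusted p = 0.0880, Fisher's exact test). The gene body share was lower for wide summits on 18 of 19 autosomes, the exception being chromosome 18 (42.4% against 40.5%). The split by strength was chosen after the values were seen.

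By width class, the gene body share was 45.7% at 170 to 199 bp, 44.1% at 300 to 399 bp and 40.4% at 400 to 499 bp. It was 36.7% at 500 to 599 bp and 27.4% (18.5 to 38.6) in the 73 peaks of 1 kb or more. The decline was not even, with 46.8% at 200 to 249 bp and 38.4% from 800 bp to under 1 kb, intervals of neighbouring classes overlapped, and no test was made between classes. Of the 73 peaks of 1 kb or more, 7 had a summit within 1 kb of a gene end (9.59%, 4.72 to 18.5), against 1.37% from 800 bp to under 1 kb, 3.52% at 600 to 799 bp, 2.18% at 500 to 599 bp and 3.11% of narrower peaks.

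**Figure D3:**
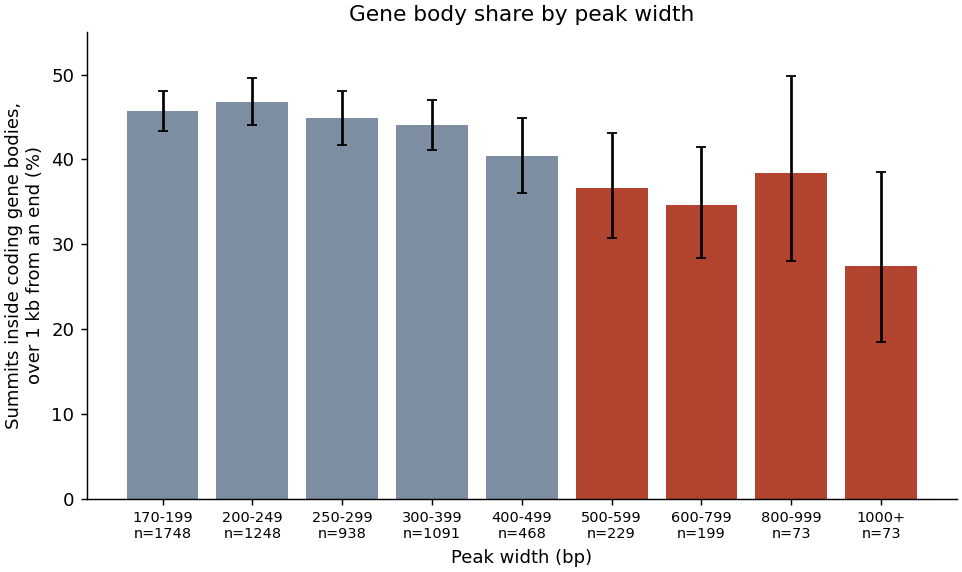
Percentage of summits inside coding gene bodies and over 1 kb from an end, by class of peak width in bp, with Wilson 95% intervals as bars and the number of peaks under each class; red classes are the wide peaks. The share is 45.7% in the narrowest class and 27.4% in the peaks of 1 kb or more, with the widest intervals in the smallest classes.

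The strongest wide peaks were at Larp7. Larp7 makes an RNA-binding protein of the 7SK particle, a brake on transcription elongation, and it was, with Cdh2, 1 of 2 genes with 3 wide summits. Its wide peaks measured 141-fold (226 fragments, 197 to 257), 119-fold (191 fragments, 165 to 220) and 75.3-fold (166 fragments, 142 to 193). Its 4 narrower peaks, from 312 to 498 bp, measured 13.9- to 75.4-fold. Of the 7 peaks, 6 lay in the gene or at its end, and 1 narrower peak lay outside it.

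The strongest wide peak (chr3:127545716-127546525) covered the hairpin of Mir367 (chr3:127545733-127545807, plus strand), inside Larp7. The hairpins of Mir302d, Mir302a, Mir302c and Mir302b lay 27, 152, 286 and 415 bp from that peak. These microRNAs, looked up after the position of the peak was seen, are made from 1 cluster and are known for their abundance in pluripotent cells. Mature forms from RefSeq (GRCm38.p6) are shown to place the cluster by its seeds, bases 2 to 8, in capitals.
miR-302b-3p: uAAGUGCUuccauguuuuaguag
miR-302d-3p: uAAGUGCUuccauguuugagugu
miR-302c-3p: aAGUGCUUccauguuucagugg
miR-367-3p: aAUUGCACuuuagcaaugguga
miR-302b-3p and miR-302d-3p share the seed AAGUGCU, miR-302c-3p has AGUGCUU and miR-367-3p has AUUGCAC. Whether the Larp7 peaks go with the transcription of the gene or of the microRNAs was not tested.

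**Figure D4:**
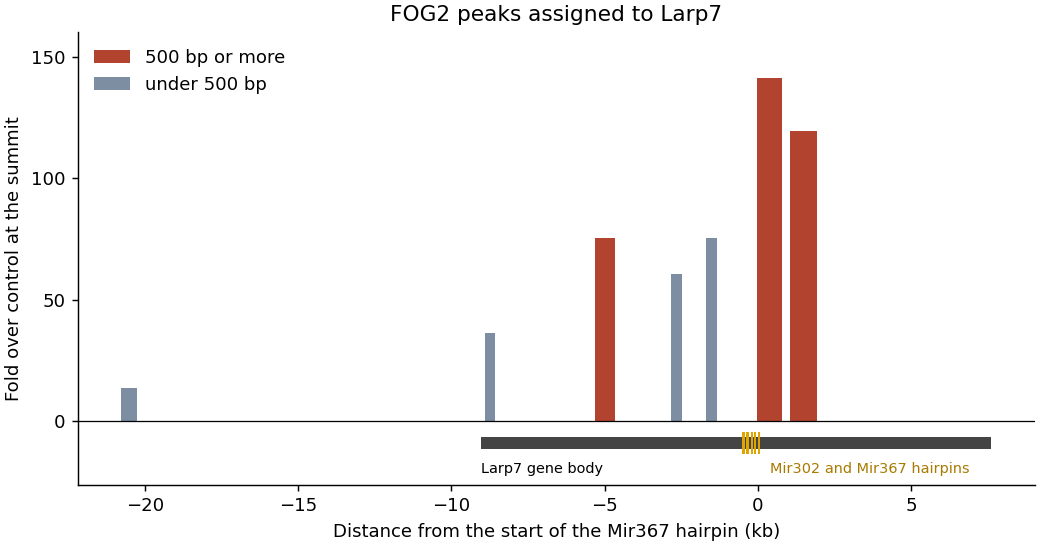
Fold over control of the 7 FOG2 peaks assigned to Larp7, drawn as bars at their true widths against distance in kb from the start of the Mir367 hairpin; red bars are the 3 wide peaks, the dark bar is the Larp7 gene body and yellow marks the 5 microRNA hairpins. The bars of 141- and 119-fold stand at and just beyond the hairpins.

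Of the other 12 among the strongest 15, 5 lay over 100 kb from a coding gene and 5 lay inside one or within 3.32 kb of it. Of these 5 distant sites, 3 had as nearest coding gene Arid1b, a subunit gene of the BAF chromatin remodeller (69.6-fold, 368 kb), Csnk1g3 (68.8-fold, 342 kb) and Ank (58.5-fold, 220 kb). The other two, nearest to Ogfrl1 (49.4-fold, 150 kb) and to Utrn, the gene of the dystrophin relative utrophin (49.3-fold, 366 kb), were 1306 and 1151 bp wide. A further peak at 53.8-fold was 96.2 kb from Ptprd, a receptor phosphatase gene, and one at 48.1-fold was 86.4 kb from the kinase gene Dyrk2. Among all wide peaks of 20-fold or more, 67.5% had a coding gene within 100 kb, close to the 69.2% of all wide peaks.

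Others of the strongest 15 lay in or near genes. The summit of a 56.3-fold peak (158 fragments, 134 to 185) was 0.219 kb outside Ttc32. A 54.3-fold peak (110 fragments, 90.4 to 133) lay inside Cep85l, and the nearest gene end to it, 12.9 kb away, was that of Pln, which encodes phospholamban, the inhibitor of the calcium pump SERCA2; Pln is named after its position was seen. A 50.5-fold peak lay inside Gyg, the gene of glycogenin, the primer of glycogen synthesis. The peak at Cacna2d1, an auxiliary subunit gene of voltage-gated calcium channels, was 40.6-fold (69 fragments, 53.7 to 87.3) and 2.39 kb past the gene. That near Cwc27, a spliceosome gene, was 40.4-fold and 3.32 kb away.

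None of the 10 widest peaks was among the strongest 15, and their folds ran from 9.11 to 35.7. The widest, 5602 bp at chr6:113071623-113077224, measured 27.6-fold with 77 fragments (60.8 to 96.2). Its nearest coding gene was Setd5, 1.65 kb away, and its summit lay inside the long non-coding RNA gene Gt(ROSA)26Sor. This is the Rosa26 locus, which carries BirA in these mice, and the part of the inserted allele in this peak was not tested. Next came Atf3 at 3132 bp (17.8-fold, 71 fragments, 55.5 to 89.6). Rasgrf1, a Ras exchange factor gene, held a peak of 2449 bp (28.3-fold, 44 fragments).

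The other 7 ranged from 1988 to 2240 bp. Ppp1r3c, a glycogen-targeting phosphatase subunit gene, had 2240 bp (9.11-fold, 26 fragments) and Aldoa, a glycolytic enzyme gene, 2234 bp (23.7-fold, 66 fragments). Ptgis, the prostacyclin synthase gene, had 1988 bp (14.9-fold) and Ppp1r12a, a myosin phosphatase subunit gene, 2014 bp (35.7-fold, 75.1 kb away). The last 3 measured 2225 bp (29.2-fold, 134 fragments, 39.8 kb from Mrpl23), 2127 bp (29.6-fold, 2.07 kb from the olfactory receptor gene Olfr769) and 2061 bp (32.3-fold, 76.6 kb from Zfp365).

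Among the 20 wide peaks at ends of coding genes were those at Ankrd1, of the stress and sarcomere lists, and Atf3, of the stress list. Mb, of the energy metabolism list, and Myc, of the cell cycle list, were also among them. The matching share among narrower peaks at gene ends was not counted, so no theme is read from these names. After Ttc32, the highest fold of the 20 was at the starts of Hspa1a and Hspa1l, a pair of heat shock protein genes. That peak measured 32.7-fold with 131 fragments (110 to 155). Ankrd1 followed at 26.5-fold, Yap1 at 20.9-fold (37 fragments, 26.1 to 51.0), the RNA-binding protein gene Pcbp1 at 20.4-fold and Atf3 at 17.8-fold. Of lower fold were H2-K1, a class I histocompatibility gene (14.5-fold), the translation repressor gene Eif4ebp1 (14.1-fold), Tecrl (9.78-fold) and the myoglobin gene Mb (9.56-fold). Myc, a transcription factor gene of cell growth, had 7.70-fold (13 fragments, 6.92 to 22.2). The rest were at Olfr1381, Spopl, Mfap3l, Cntln, Olfr607, Upk3a, Ppp1r3c, Sh2d4a and Ntpcr, between 6.37- and 19.3-fold. Counting intervals of the weaker members overlapped, and no order among them was detectable.

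Assignment to the nearest coding gene within 100 kb gave 367 genes with a wide summit, 1.78% of 20661 autosomal coding genes and 12.8% of the 2863 with any summit. Of the 4617 assigned summits, 8.6% were wide. Most genes had a single wide summit (339), 26 had 2, and Larp7 and Cdh2 had 3. For 158 of the 367 the wide summit was the only FOG2 summit, and 205 also had a narrower one. Of the 397 wide summits assigned to a gene, 208 were inside it and the rest lay up to 100 kb away. The nearest gene need not be the one on which a site acts. The gene lists below overlap and were made with earlier results of these data known, and their counts are given with no test.

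Genes of cardiac transcription factors often had a wide summit, 13 of the 31 with any summit (41.9%, 26.4 to 59.2), beside 12.8% of all genes with a summit. These genes also had more summits, a median of 3 each against 1 over all genes, and 15 of their 114 summits (13.2%) were wide. Sox5, a SOX family gene, led with 34.1-fold (948 bp, 56 fragments, 42.3 to 72.7), inside the gene. Ppargc1a, the coactivator of mitochondrial genes, had 20.3-fold, and Tbx3, a repressor that shapes the conduction system, had 19.7-fold at 92.5 kb. Among the others were Esrrg, an orphan nuclear receptor gene, at 17.9-fold and Zfpm2 at 5.19-fold.

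Several central regulators had narrower peaks only, as did 2496 of the 2863 genes with any summit. Gata4, Gata6 and Tbx5 had 3, 5 and 3 summits and Nkx2-5 had 3, all under 500 bp, and the strongest of Nkx2-5 reached 22.1-fold. Zfpm2, the FOG2 gene that carries the tag, had 1 wide summit of 7. This peak (chr15:40658167-40658870) lay inside the gene 3.29 kb from an end and was 704 bp wide and 5.19-fold, with 20 fragments (12.2 to 30.9). Its relation to the tagged allele was not tested.

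Further wide summits lay more than 100 kb from any coding gene, some of them near or inside non-coding genes, and had the gene of a cardiac transcription factor as nearest coding gene. There were 9 among the 177 wide summits without a coding gene in range, picked out after the values were seen. The strongest, 34.0-fold with 95 fragments, was 211 kb from Hey2, a transcriptional repressor gene that marks compact ventricular wall. Tbx3 had one at 15.8-fold (319 kb) and one at 11.96-fold (131 kb) besides its assigned peak. Irx3 (13.7-fold, 166 kb), Nr2f1 (11.9-fold, 694 kb), Tbx20 (11.3-fold, 114 kb), Irx1 (8.12-fold, 156 kb) and Tbx18 (7.28-fold, 145 kb) had 1 each.

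Of 28 sarcomere genes with a summit, 3 had a wide one (10.7%, 3.71 to 27.2), near the 12.8% of all genes with a summit. These genes had a median of 3 summits each, and 3 of their 84 summits (3.57%) were wide, beside 8.6% overall. Among them were Ankrd1 (26.5-fold) and Actc1, the cardiac alpha actin gene (7.57-fold, 25 fragments, 1.40 kb outside). Genes of the actin cytoskeleton had no wide summit among 22, at 12 genes (upper limit 24.2%). The intervals of the sarcomere and transcription factor shares overlap between 26.4 and 27.2%, and the difference between the lists was not tested.

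Calcium handling genes with a wide summit were 3 of 14 (21.4%), namely Cacna2d1 (40.6-fold), Ryr2 and Slc8a1, the sodium-calcium exchanger gene (10.2-fold). The wide peak of Ryr2, the calcium release channel, was 1 of 10 summits, 17.6-fold and 512 bp (44 fragments, 32.0 to 59.1), 25.4 kb outside. Atp2a2, the SERCA2 gene, had no wide summit, and its 1 summit, at 12.9-fold and 493 bp, was just under the width threshold. Of 11 ion channel genes 3 had a wide summit (27.3%), the potassium channel genes Kcnk3 (22.7-fold) and Kcnd2 (12.4-fold) and the sodium channel gene Scn10a (14.0-fold). Energy metabolism had 5 of 14 (35.7%), among them Ppargc1a and the nuclear receptor genes Esrrg (17.9-fold) and Ppara (10.1-fold) and, at 9.56-fold, Mb. Counted by summit, 3 of 39 (7.69%) were wide in the calcium list and 4 of 23 (17.4%) in the channel list. In the energy list 5 of 39 (12.8%) were wide, beside 8.6% of all assigned summits.

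Adhesion genes had a wide summit in 5 of 14 cases (35.7%, 16.3 to 61.2), and Cdh2 led them. Of the 43 summits of the adhesion list, 7 (16.3%) were wide, beside 8.6% of all assigned summits. Cdh2 encodes N-cadherin, which joins cardiomyocytes at the intercalated disc. Its wide summits, 3 of 7, measured 32.2-fold (129 fragments, 108 to 153), 11.2-fold (17 fragments, 9.90 to 27.2) and 10.8-fold (36 fragments, 25.2 to 49.8). The first and the last lay inside the gene and the other 74.0 kb outside. The integrin gene Itga9 (14.5-fold, 5.06 kb away), Cdh13 (9.95-fold), the beta-catenin gene Ctnnb1 (9.28-fold, 64.3 kb away) and the plakoglobin gene Jup had 1 each.

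In developmental signalling, 6 of 26 genes had a wide summit (23.1%). Igf2r (24.4-fold, 21.2 kb away), Vegfa (19.9-fold, 33.6 kb away), Pdgfrb (14.5-fold) and Tgfb2 (12.8-fold, 3.7 kb away) led them. Axon guidance genes had 4 of 23 (17.4%). These were Nrp2, a neuropilin that also serves as a VEGF coreceptor (27.8-fold, 10.2 kb away), Robo1 (9.47-fold, 21.1 kb away), Efna5 (9.02-fold, 69.2 kb away) and Sema6d (6.68-fold). Axon guidance genes had a median of 3 summits each, and 5 of their 83 summits (6.02%) were wide, beside 8.6% of all assigned summits. In the matrix list 2 of 19 genes (10.5%) had one, the laminin genes Lama4 (26.7-fold, 3.31 kb away) and Lamc1 (7.22-fold). Counted by summit, 7 of 62 (11.3%) were wide in the signalling list and 2 of 37 (5.41%) in the matrix list.

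In the lists of other cells and processes, wide summits were at 0 to 3 genes each, beside 12.8% of all genes with a summit. Endothelial genes had wide summits assigned to Klf4 (30.7-fold) and Erg (17.6-fold, 13.6 kb away), 2 of 7 genes. In the epicardial list only Tbx18 had one, 1 of 10 genes (10.8-fold, 94.3 kb away). Stress genes had 3 of 10, Klf4 (also of the endothelial list), Ankrd1 (also of the sarcomere list) and Atf3. Myc was the only one of 3 cell cycle genes and Chd4, a NuRD subunit gene (10.1-fold), the only one of 3 corepressor genes. Runx1 (16.2-fold, 97.9 kb away) was 1 of 2 blood genes, Myh3 (29.8-fold) 1 of 2 skeletal muscle genes and Larp7 1 of 2 elongation genes. Hepatocyte, neuronal and housekeeping genes had no wide summit, at 1, 4 and 4 genes with a summit.

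**Figure D5:**
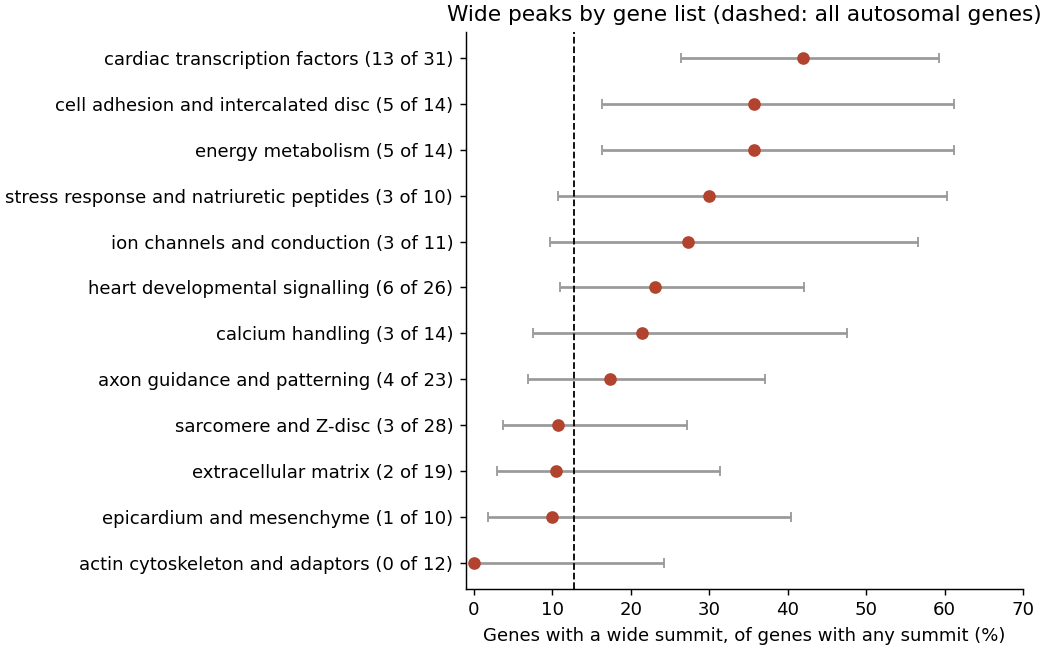
Percentage of genes with a wide summit among genes with any FOG2 summit, for 12 gene lists, with Wilson 95% intervals as bars and the counts beside each name; the dashed line is the 12.8% over all autosomal coding genes. Cardiac transcription factors stand highest at 41.9%, the interval of most lists includes the line, and actin cytoskeleton genes are at 0 of 12. The percentages count genes and are not adjusted for the number of summits per gene, which differs between lists.

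Wide summits lay at a median of 56.2 kb from the next summit, against 73.5 kb for narrower peaks and 48.3 kb for narrower peaks of 10-fold or more, with no test made. Another summit was within 10 kb of 133 wide summits (23.2%, 19.9 to 26.8) and of 994 narrower ones (18.1%, 17.1 to 19.1). In 16 loci 2 or more wide summits lay within 10 kb of each other, 33 summits in all, so the 574 peaks made 557 loci. Beside Larp7 these loci were nearest to Csnk1g3, Slc15a1, Adgrl2, Rasgrf1 and others, named after they were seen. Of all wide summits, 67 (11.7%) lay outside coding genes but inside a non-coding gene, 64 of them one of a long non-coding RNA, against 562 of all narrower summits (10.2%). Both percentages are of all summits, of which 208 wide and 2572 narrower ones lay inside a coding gene body. The share among summits outside coding gene bodies was not compared. In no gene body of any kind lay 299 wide summits (52.1%, 48.0 to 56.2) and 2359 narrower ones (42.9%, 41.6 to 44.3).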

How the data were processed

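Both pulldown libraries were pooled against the input by the authors, and 1 peak list without blacklisted regions was deposited; the submitters' processing notes name Bowtie2 2.3.2, SAMtools 1.5, Picard, MACS2 2.1.1 and mm10. The caller's settings were not given in the sources used here. Strength was taken as the deposited fold, a ratio of pulldown over control. The deposited −log10 p and −log10 q are the authors' caller's values for that summit. The deposited display score was not used further. Because the list is pooled, depth per library was not given, and precision rests on the fragments at each summit.

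Fragments were recovered as whole numbers k from the fold, (k + 1) over the control level + 1, and a Poisson tail, within 0.001 of the deposited −log10 p in 100% of summits (largest misfit 0.000148). Exact Poisson and Wilson 95% intervals cover counting error only. Summits were placed against gene starts and ends in a RefSeq table (GRCm38.p6) and assigned to the nearest protein-coding gene body within 100 kb. Shares were compared with two-sided Fisher's exact tests and Newcombe intervals, adjusted by the Benjamini-Hochberg method over 4 measures, with a threshold of 0.05 (Python 3.11.15, SciPy 1.17.1, pandas 2.3.3); the steps were tested on simulated data. Of 515 genes in 21 lists, 514 were matched. Promoter windows covered 18 autosomes.

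The members, gene lists and tests were chosen with earlier results of these data known. Named were the 15 wide peaks of highest fold, the 10 widest, genes with 3 or more wide summits, the wide peaks within 1 kb of a gene end, up to 4 genes per list by fold, and Zfpm2, Gata4, Gata6, Tbx5, Nkx2-5, Ryr2 and Atp2a2; some genes under this rule are not reported here. Promoters were to be shown for up to 8 genes by fold; 4 of these are printed, and Tecrl, which that order did not reach. Other width thresholds, minimum strengths, gene ends, gene sets and left-out loci were tried as alternatives.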

Additional observations from a re-analysis of the deposited data

How the results depend on the processing

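The lower share of wide summits in gene bodies kept its direction and stayed past the threshold in 12 of 13 alternatives (−11.5 to −7.96 points), and the higher share outside them in 12 of 13 (6.98 to 10.1 points). Between wide and narrower peaks both under 10-fold, the differences were −7.96 in gene bodies, 7.19 outside and −6.79 for a coding gene within 100 kb, none past the threshold (adjusted p = 0.0880 each, Fisher's exact test), with only 177 wide peaks. The difference for a gene within 100 kb fell to −1.12 with genes of any biotype, where the shares were 94.4% and 95.5%. It stayed past the threshold in 12 of 14 alternatives. The difference at gene ends was −0.673 with wide peaks set at 400 bp, opposite in sign, and 1.72, past the threshold (adjusted p = 0.0413, Fisher's exact test), when any part of the interval near an end counted; the cause was not tested for the first, and a longer interval reaches more ends by construction in the second. The number of genes with a wide summit was 640 at a threshold of 400 bp, 229 at 600 bp and 93 at 800 bp, where fewer peaks remain. Leaving out the peaks of Larp7, Zfpm2 and Gt(ROSA)26Sor, which was chosen after the data were seen as were both splits at 10-fold, gave −10.4 in gene bodies and 9.94 outside. No paired analysis was possible because the authors pooled the replicates in 1 list. Summits near the median rest on few fragments, so single folds are imprecise.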

Other observations

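Some wide peaks lay at imprinted genes, which are expressed mainly from 1 parental copy; these were picked after their positions were seen, and no test was made. The peak of 2225 bp on chromosome 7 (29.2-fold) lay between H19, a long non-coding RNA gene 2.36 kb away, and Igf2, 70.3 kb away, a stretch known to hold the imprinting control region of that pair. Both wide peaks nearest to Igf2r, 24.4- and 10.3-fold, lay inside Airn, the long non-coding RNA that silences Igf2r on the paternal copy. Grb10, a growth-restraining adaptor gene, held 2 wide peaks (23.0- and 10.2-fold), and so did Rasgrf1 (28.3- and 12.4-fold). The long non-coding RNA gene Meg3 was also looked up, and its nearest wide peak was 482 kb away. Over all coding genes with any summit, 12.8% had a wide one. The matching share of imprinted genes was not counted, so no theme is read from these names.

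Several genes with many FOG2 summits had no wide one, which held for 2496 of the 2863 genes with any summit. Macrod2 had 13 summits, the widest 451 bp, Ror1, Tenm3 and Sorbs2 had 10 each, and Palld, an actin-binding protein gene of the Z-disc, had 8, the widest 490 bp. The X chromosome, left out above, carried 14 peaks of 500 bp or more. The strongest was at Pgk1, a glycolytic enzyme gene, at 158-fold with a second at 42.8-fold, their summits 0.15 and 0.237 kb from ends of the gene. The longest lay at Hprt, a purine salvage gene (4495 bp, 17.0-fold), and near Phf6 (3886 bp, 18.03-fold). Whether the peaks at Pgk1, Hprt and Phf6 come from the native loci was not tested. By chromosome, the wide share of autosomal peaks ran from 5.30% on chromosome 7 (14 of 264) to 13.5% on chromosome 5 (48 of 355).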
